A study of Aspergillus niger with 16 samples.

Results

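The genes described here are the 55 of 11580 genes listed in any library whose transcript level was raised in the absence of *gaaR* in each of 4 growth conditions of the fungus Aspergillus niger. They were chosen by level. For each condition R is the log2 of (mean FPKM without *gaaR* + 1) over (mean FPKM in the reference strain + 1), from 2 libraries a group, and members had R of at least 1, a 2-fold difference on that scale, in all 4 conditions. FPKM is the number of reads scaled by gene length and library total, and a gene missing from a library's list was taken as 0. Gene NRRL3_05407 was left out of the choice beforehand, which removed nothing because its R on sugar beet pectin at 24 h was 0.05. The deletion strain (ΔgaaR, CBS 141258) and the reference strain (CBS 141257) each first spent 16 h in complete medium whose carbon source was 2% fructose. Their mycelium was washed and put into minimal medium (pH 6, shaken at 250 rpm and 30 °C). The carbon source there was either 25 mM D-galacturonic acid (GA), sampled after 2 h, or 1% sugar beet pectin (SBP), sampled after 2, 8 and 24 h. Total mycelial RNA of each of the 8 groups gave 2 libraries. The labels name no allele other than the deletion, and they do not say whether the strains are single clones or the replicates separate cultures, so the spread between replicates may be technical.

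*gaaR* encodes a transcriptional activator of the zinc cluster type that switches on the uptake and breakdown of GA, the acidic sugar that forms the backbone of pectin. Its targets are genes for pectin-degrading enzymes, a GA transporter and the enzymes of the GA catabolic pathway, and a repressor, GaaX, is thought to hold it inactive until a breakdown product of GA appears. Genes that need an activator are expected to lose transcript when it is deleted, and the 55 genes here lie on the opposite side. The gene identifiers are locus tags of strain NRRL3. The files and the reference gene table pair none of the 55 tags with a name or a function, so the genes are called by their tags and no role is given.

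As a check of the labels, *gaaR* itself (NRRL3_08195, a tag recalled from publications) had between 0 and 30 reads in the 8 ΔgaaR libraries. It had between 176 and 1984 in the 8 reference libraries. The tag was verified by no other source, so these counts check tag and labels only together. The 30 reads were in ΔgaaR GA replicate 1, against 176 and 241 in the reference on GA. Library totals ran from 3203011 to 4574019 reads, and the correlation between replicates over genes, in log2 values, was 0.965 to 0.986. Replicates were not equally close in all groups. Their chi-square per degree of freedom was 31.2 for ΔgaaR on GA, 33.5 for ΔgaaR on SBP at 2 h and 36.6 for the reference at 24 h. In the other groups it was 6.04 to 10.6. The values that chose the members are given below as a description, without tests of ΔgaaR against the reference. The RNA comes from bulk mycelium, so fewer cells of a type and less RNA per cell cannot be told apart, and the tissue label was not checked against markers because none could be matched to these tags.

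The condition that limited membership was SBP at 2 h. There R of the members ran from 1.00 to 4.16 with a median of 1.5, against medians of 2.46 on GA, 2.85 on SBP at 8 h and 1.71 on SBP at 24 h. R was smallest at 2 h on SBP for 29 of the 55 genes. Among all 11580 genes R reached 1 for 19.9% on GA, 6.49% on SBP at 2 h, 15.8% at 8 h and 11.7% at 24 h, and for 0.475% in all 4 conditions. The median R of the 10003 genes with enough reads for testing was 0.17, 0.07, -0.01 and 0.16 in the same order. All these values were used by the choice and support nothing by themselves.

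The members fell into uneven groups by the condition in which R was largest. GA came first for 22 genes, led by NRRL3_03272 (R = 5.79), NRRL3_03467 (5.68), NRRL3_02416 (5.23) and NRRL3_07491 (5.12). SBP at 8 h came first for 18, led by NRRL3_11452 (5.84), NRRL3_03471 (5.60) and NRRL3_03902 (5.48). SBP at 24 h came first for 12, led by NRRL3_11516 (6.52), NRRL3_03466 (5.69) and NRRL3_04490 (4.70). Only NRRL3_01234, NRRL3_09667 and NRRL3_11091 had their largest R on SBP at 2 h, and their largest R was 1.51 to 1.6.

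**Figure D1:**
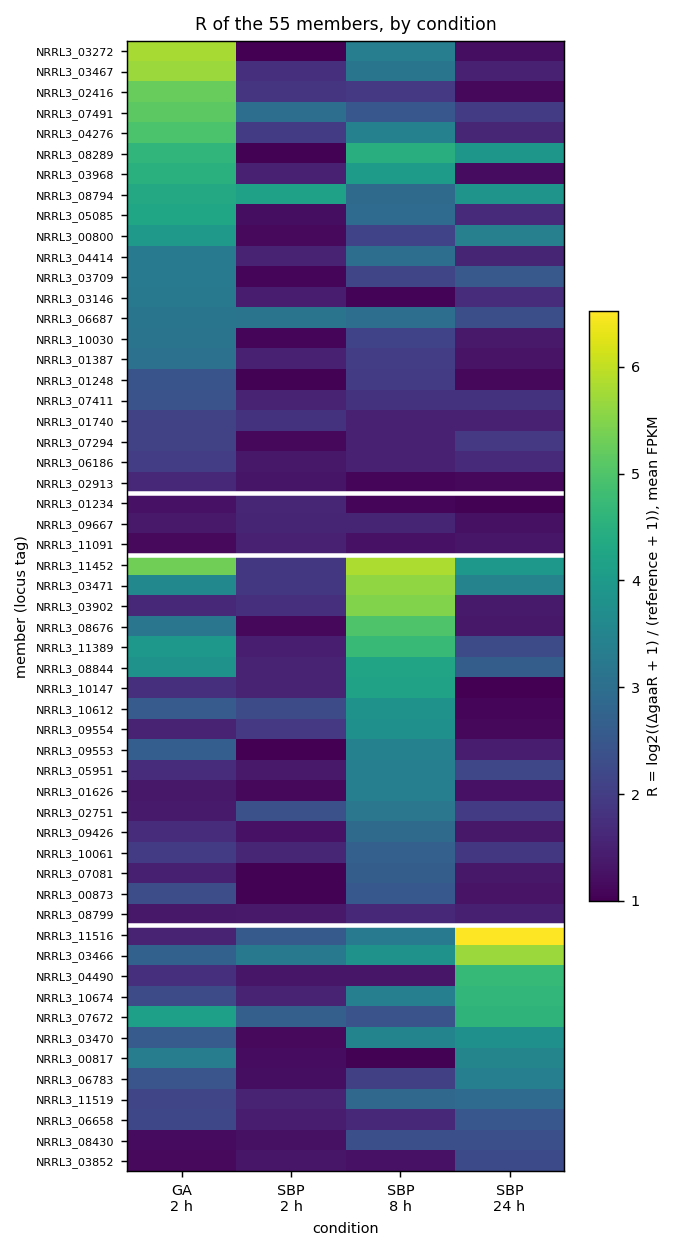
R of each of the 55 members (rows, by locus tag) in the 4 conditions (columns), on a colour scale of log2 units. Rows are grouped by the condition with the largest R, which gives blocks of 22, 3, 18 and 12 genes from top to bottom, and the lowest value of a row lies in the SBP 2 h column for 29 of them.

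A uniform response of large size was rare. R was at least 1.5 in all 4 conditions for 17 members and at least 2 for 4 of them. Those just inside the threshold were NRRL3_03272 with a smallest R of 1.0005, NRRL3_10147 with 1.0076 and NRRL3_09553 with 1.0222. Just outside were NRRL3_06950 with 0.9997, NRRL3_05519 with 0.9961 and NRRL3_00201 with 0.9921. Both ΔgaaR libraries lay above both reference libraries for 54 members on GA (36.4% of all genes), 54 on SBP at 2 h (27.4%), 55 at 8 h (33.7%) and 55 at 24 h (40.6%). This held in all 4 conditions for 53 members and for 3.76% of all genes. The other two overlapped in 1 condition each, NRRL3_04490 on SBP at 2 h and NRRL3_05951 on GA. All 8 ΔgaaR libraries lay above all 8 reference libraries, whatever the condition, for 16 members and 0.535% of all genes. These shares come from the contrasts that chose the genes. With only 2 libraries a group, single libraries decided many memberships: 24 of the 55 met the rule whichever of the 16 libraries was left out, and 31 failed it in at least 1 case. Leaving out a library failed 16 of them on SBP at 2 h, 9 on GA, 5 at 8 h and 13 at 24 h. With 1 FPKM added to each library, as in R, the 2 replicates lay over 2-fold apart for 9 members in ΔgaaR and 6 in the reference on GA, and for 0 in ΔgaaR and 8 in the reference on SBP at 24 h.

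In ΔgaaR the members spanned a wide range of levels. Their mean over the 8 ΔgaaR libraries was at least 100 FPKM for 20 genes, between 10 and 100 for 28 and below 10 for 7. The median of these means was 43.1 FPKM in ΔgaaR and 9.04 FPKM in the reference, whereas over all genes the median was 16.4 FPKM in either strain. In the reference 22 members averaged under 5 FPKM, and 7 of these under 1 FPKM. Together they took 1.56 to 3.23% of the reads of a ΔgaaR library and 0.605 to 1.07% of a reference library. One gene, NRRL3_01234, made up much of that, and without it the other 54 took 0.438 to 1.47% and 0.111 to 0.315%.

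NRRL3_01234 had the highest level of all members. Its coding length is 429 bases. On GA it stood at 31219 and 28232 FPKM in ΔgaaR against 12430 and 12131 in the reference, and on SBP at 2 h at 37807 and 27558 in ΔgaaR against 10852 and 10732 in the reference. At 8 h the values were 44999 and 33332 in ΔgaaR and 17102 and 20160 in the reference, and at 24 h 20579 and 22078 in ΔgaaR and 9726 and 11037 in the reference. All 8 ΔgaaR libraries were thus above all 8 reference libraries. Its R stayed between 1.04 and 1.6, a narrow range, and was lowest with ΔgaaR replicate 1 at 8 h left out (0.84). It met the rule in 12 of the 16 cases with 1 library left out.

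NRRL3_11516, a short gene of 252 coding bases, had the steepest course. In ΔgaaR it had 9.26 and 24 FPKM with GA, then 15.3 and 1.21 after 2 h of SBP, 146 and 101 after 8 h and 6873 and 9640 after 24 h. In the reference it had 4.16 and 5.95 FPKM with GA, then 0 and 1.1 after 2 h of SBP, 13 and 11.2 after 8 h and 161 and 17.6 after 24 h. The ΔgaaR libraries were higher in every condition, but on SBP at 2 h the values rest on 15 and 1 reads in ΔgaaR and 0 and 1 in the reference. Single libraries weighed heavily: R on SBP at 2 h was 2.57, and 0.51 without ΔgaaR replicate 1, and R on GA was 1.54, and 0.76 without ΔgaaR replicate 2. At 24 h R was 6.52, and 8.80 without reference replicate 1, where the gene had 160 reads, against 18 in replicate 2.

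NRRL3_07491 and NRRL3_08289 kept ΔgaaR levels of over 100 FPKM in every library. So did other members, NRRL3_01234, NRRL3_00800, NRRL3_11091 and NRRL3_03146 among them. NRRL3_07491 stood at 563 and 489 FPKM on GA in ΔgaaR against 11.3 and 17 in the reference, and at 516 and 437 on SBP at 2 h in ΔgaaR against 72.7 and 44.3. At 8 h it had 364 and 335 FPKM in ΔgaaR and 46.6 and 76 in the reference, and at 24 h 1722 and 1562 in ΔgaaR and 558 and 290 in the reference. Its R was thus largest on GA, at 5.12, and smallest at 24 h, at 1.95, where the reference level was itself high. For NRRL3_08289 the closest condition was SBP at 2 h, with 127 and 110 FPKM in ΔgaaR and 67.8 and 47.5 in the reference (R = 1.03, and 0.80 without reference replicate 2). On GA it had 471 and 308 FPKM in ΔgaaR and 13.1 and 16.1 in the reference, at 8 h 623 and 617 against 20.9 and 32.8, and at 24 h 836 and 828 against 66.6 and 41.5.

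NRRL3_00800 and NRRL3_11091 were high on SBP at 8 h in both strains. NRRL3_00800 had 1338 and 1317 FPKM there in ΔgaaR and 295 and 319 in the reference. On GA it had 1261 and 1436 FPKM in ΔgaaR and only 90.8 and 80.2 in the reference. Its groups were nearer to each other at 2 h on SBP, with 346 and 189 in ΔgaaR and 123 and 119 in the reference (R = 1.14, and 0.64 without ΔgaaR replicate 1). At 24 h both strains were lower, at 248 and 319 FPKM in ΔgaaR and 35.8 and 16.1 in the reference. NRRL3_11091 had 1535 and 1195 FPKM at 8 h in ΔgaaR and 566 and 555 in the reference. In its other conditions the 6 ΔgaaR libraries had 159 to 582 FPKM and the 6 reference libraries 76.6 to 263. Its R ran from 1.13 to 1.51, and it met the rule in 13 of the 16 cases with 1 library left out.

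The last of the 8 most abundant members were NRRL3_03146 and NRRL3_09554. NRRL3_03146 (333 coding bases) had 2156 and 1922 FPKM on GA in ΔgaaR and 245 and 187 in the reference, and 3101 and 1924 on SBP at 2 h in ΔgaaR and 843 and 1004 in the reference. Its groups were closest at 8 h, at 573 and 451 FPKM in ΔgaaR and 234 and 258 in the reference, where R was 1.05, and 0.87 without ΔgaaR replicate 1. At 24 h it was back at 1932 and 2145 FPKM in ΔgaaR and 723 and 526 in the reference. NRRL3_09554 is described with its neighbour below.

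**Figure D2:**
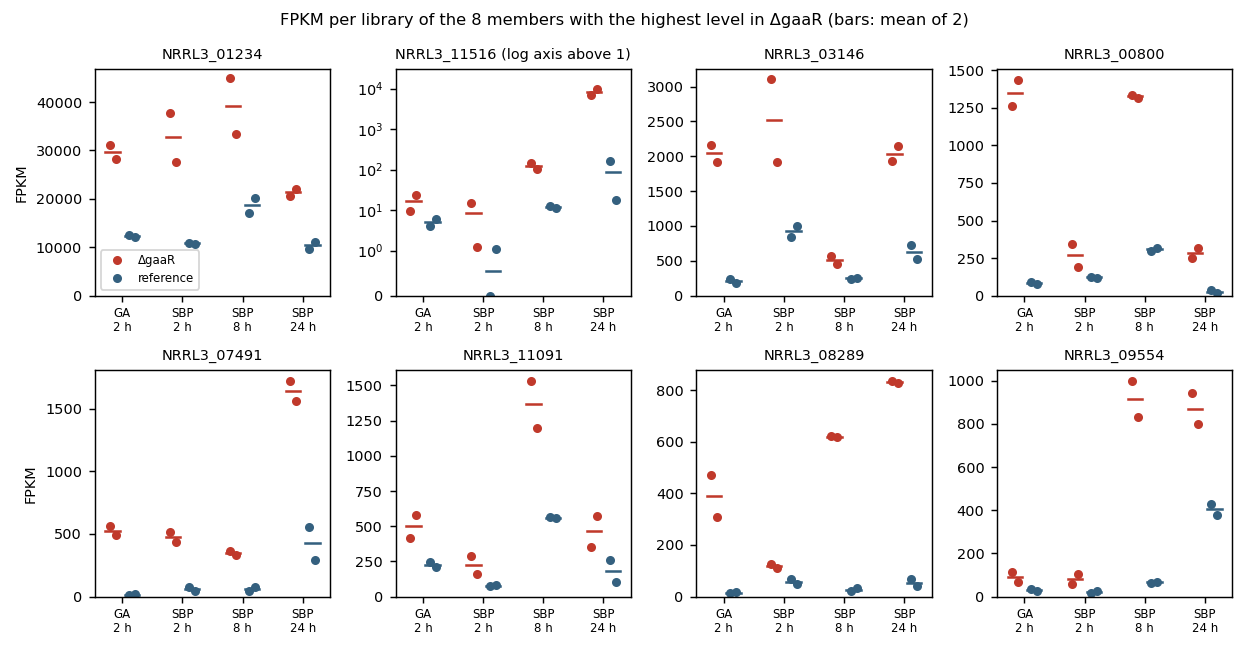
FPKM of every library (points) and the group mean (bars) for the 8 members with the highest mean level in ΔgaaR, by condition, with ΔgaaR left of the reference. Axes are linear from 0 except for NRRL3_11516, whose axis is logarithmic above 1 FPKM and which spans 1.21 to 9640 FPKM in ΔgaaR; in each panel and condition both ΔgaaR points lie above both reference points.

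The 3 members with the largest smallest R were NRRL3_08794, NRRL3_03466 and NRRL3_07672. NRRL3_08794 (498 coding bases) was read 22 to 58 times in each ΔgaaR library and 0 to 4 times in each reference library. On SBP at 2 h it had 40 and 26 reads in ΔgaaR and 0 and 0 in the reference, which makes it at least 10.5-fold higher when the reference is set to a floor of 3 reads per library. At 24 h it had 32 and 22 reads in ΔgaaR and 0 and 0 in the reference, at least 9.68-fold higher. Its R lay between 2.91 and 4.33. The ΔgaaR libraries ranged from 10.9 to 35.9 FPKM over all conditions.

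NRRL3_03466 (834 coding bases) was read 21 and 30 times on GA in ΔgaaR, against 2 and 0 in the reference, and 43 and 34 times at 2 h on SBP in ΔgaaR, against 2 and 0. The ΔgaaR reads were 61 and 61 at 8 h and 162 and 190 at 24 h, while the reference had 2 and 1 and then 0 and 0. The gene was therefore near silent in the reference throughout. At 24 h it was at least 63.2-fold higher in ΔgaaR. NRRL3_07672 (1392 coding bases) was read in every library of both strains. It had 443 and 287 FPKM on GA in ΔgaaR and 17.2 and 23.1 in the reference, 101 and 92.3 on SBP at 2 h against 12.5 and 16.3, 48.8 and 46.3 at 8 h against 8.3 and 7.9, and 561 and 429 at 24 h against 11.7 and 27.5. Its ΔgaaR level was thus lowest at 8 h and high on GA and at 24 h.

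Near silence in the reference was not the rule. At most 3 reads in every reference library were found for 4 members, NRRL3_03466, NRRL3_05951, NRRL3_08430 and NRRL3_08844, and none of the 55 had 0 reads in all 8. Over the 8 ΔgaaR libraries the 4 summed to 602, 60, 105 and 188 reads, against 7, 7, 9 and 5 reads in the reference. In ΔgaaR NRRL3_08844 had 23 and 25 reads with GA, 5 and 5 after 2 h of SBP, 63 and 35 after 8 h and 21 and 11 after 24 h, and it had 0 or 1 in each reference library. A reference group at 0 in both libraries occurred for 9 members in 1 or more conditions. Some of these rest on ΔgaaR libraries that were themselves at or under the floor of 3 reads. NRRL3_10061 had 3 and 2 ΔgaaR reads on GA (at least 0.782-fold) and 8 and 1 on SBP at 8 h (at least 1.56-fold). NRRL3_08430 had 5 and 3 on GA (at least 1.26-fold), and NRRL3_06687 had 19 and 3 on SBP at 2 h (at least 3.33-fold). For these the counts do not show a raised level clear of counting error.

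Some members lie side by side in tag order. Of the 55, 6 sit in pairs with consecutive numbers, NRRL3_03466 with NRRL3_03467, NRRL3_03470 with NRRL3_03471, and NRRL3_09553 with NRRL3_09554. The first 2 pairs are 3 tags apart. Tag numbers are taken here as the gene order of the NRRL3 annotation, whose coordinates were not used. Where neighbouring genes overlap, reads cannot be told apart, since no source used here says that the counting kept strand.

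NRRL3_03467 (1554 coding bases) had 320 and 285 FPKM on GA in ΔgaaR and 4.74 and 5.08 in the reference. On SBP at 2 h it had 107 and 135 in ΔgaaR and 33.5 and 37.5 in the reference. The later values were 435 and 441 FPKM at 8 h in ΔgaaR against 53.4 and 44.5, and 77 and 72.7 at 24 h against 23 and 28.2. Replicates were close and the groups clear of each other in each condition, and R was largest on GA, at 5.68. Its neighbour NRRL3_03466, described above, was close to 0 in the reference at every time, so the pair differed in level. Their shared direction was fixed by the choice of members.

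NRRL3_03471 (837 coding bases) had 59.6 and 43.4 FPKM on GA in ΔgaaR and 4.87 and 1.92 in the reference, and 56 and 92 on SBP at 2 h in ΔgaaR and 16.6 and 21.9 in the reference. At 8 h it had 228 and 230 in ΔgaaR and 4.47 and 3.01 in the reference, and at 24 h 128 and 109 in ΔgaaR and 11.4 and 8.17 in the reference. The 8 h values stand out: the highest ΔgaaR level coincides with a low reference level. NRRL3_03470 (1425 coding bases) was weaker, with 26 to 141 reads in each ΔgaaR library and 0 to 17 in each reference library. Its R on SBP at 2 h was 1.15, and 0.72 without reference replicate 2.

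**Figure D3:**
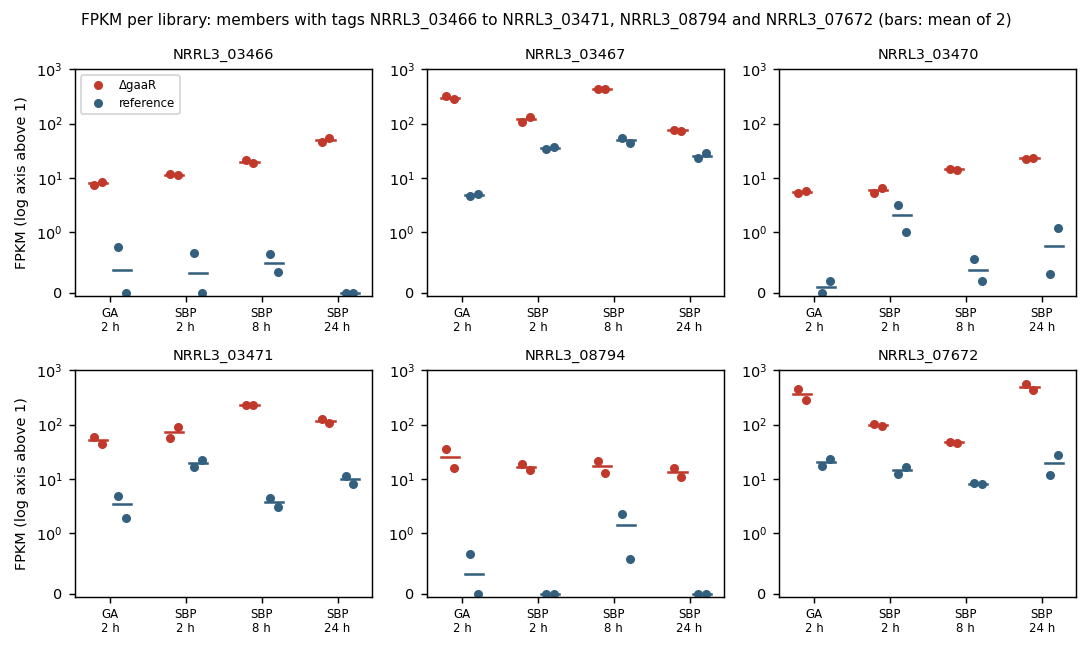
FPKM of every library (points) and the group mean (bars) for the 4 members between NRRL3_03466 and NRRL3_03471 and for NRRL3_08794 and NRRL3_07672, by condition, with ΔgaaR left of the reference, on axes that are logarithmic above 1 FPKM. In all 6 panels both ΔgaaR points lie above both reference points in each condition, and NRRL3_03466 and NRRL3_08794 have reference libraries at 0.

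The genes between and beside these members were looked at after their values were known. NRRL3_03468 is listed in no library. NRRL3_03469 had R of 1.74 on GA, 0.64 on SBP at 2 h, 3.34 at 8 h and 2.17 at 24 h, and NRRL3_03473 had 3.24, 0.78, 2.87 and 1.12 in the same order, so each missed membership at SBP 2 h alone. NRRL3_03472 was nearly unread, at no more than 0.825 FPKM in any group. On the other side NRRL3_03465 reached R of 1.75 on GA and 1.5 on SBP at 2 h but -0.24 at 8 h and -0.03 at 24 h. From NRRL3_03474 to NRRL3_03476 R on GA was -2.28, -1.97 and -2.32. Raised values on GA thus ended within 3 tags of the last member on that side.

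NRRL3_09554 (894 coding bases) had 999 and 834 FPKM at 8 h in ΔgaaR and 64.1 and 67.7 in the reference. At 24 h it had 944 and 798 in ΔgaaR and 427 and 380 in the reference, so the gap narrowed as the reference level was higher there. On GA it had 115 and 68.6 FPKM in ΔgaaR and 37 and 25.5 in the reference, and on SBP at 2 h 59.9 and 105 in ΔgaaR and 16.7 and 25.5 in the reference. NRRL3_09553 (1587 coding bases) followed a similar course, with 127 and 146 FPKM at 8 h in ΔgaaR and 11.9 and 11.7 in the reference, and 223 and 179 at 24 h in ΔgaaR and 75 and 72.5 in the reference. At the 2 h points it had 17.9 to 29.6 FPKM in ΔgaaR and 2.98 to 10.6 in the reference. The next gene, NRRL3_09555, which is no member, had R of 2.96 at 8 h and 1.34 on SBP at 2 h but 0.94 on GA and 0.85 at 24 h.

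**Figure D4:**
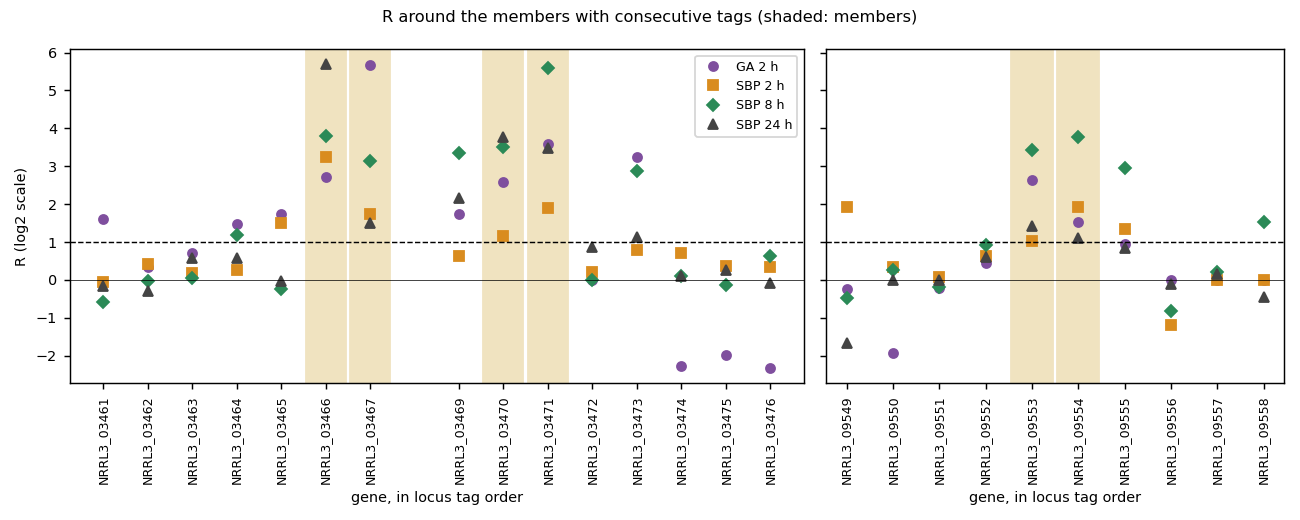
R in the 4 conditions (points) for genes in the order of their locus tags around the 2 places where members have consecutive tags. Shaded columns are members and the dashed line is the threshold of 1. NRRL3_03469 and NRRL3_03473 have 3 points above it and NRRL3_09555 has 2. By the rule of choice, no gene outside the shaded columns can have all 4 above it.

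Neighbours of all members were counted the same way. Within 3 tags of a member lay 292 other listed genes, and R was at least 1 for 23.3% of them on GA, 10.3% on SBP at 2 h, 27.1% at 8 h and 13.7% at 24 h. For the 100 genes with an adjacent tag the shares were 29.0%, 15%, 32.0% and 17.0%. The same shares over all genes were 19.9%, 6.49%, 15.8% and 11.7%. R of at least 1 in 3 or more conditions was found for 15 of the 100 adjacent genes and for 3.57% of all genes. These are counts beside a background and no test was made.

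The median member was shorter than the median gene. The members' coding lengths ran from 240 to 3300 bases with a median of 894, against a median of 1278 over all listed genes. Lengths under 600 bases were found for 30.9% of members and 13.0% of all genes. Short genes collect fewer reads at a given FPKM. The median member had 182 reads per ΔgaaR library and 33.1 per reference library, a gap that the choice by R required. Over the libraries of both strains the median of mean reads was 109 for the members and 127 for the genes tested.

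How the members changed between conditions within a strain was not itself a criterion of the choice, although the same libraries are involved. These 6 comparisons were tested with edgeR's quasi-likelihood F test over 10003 genes, with Benjamini-Hochberg adjustment and calls at an adjusted p under 0.05, and all 55 members passed the filter on low counts over the 16 libraries. Of these, 13 passed only through ΔgaaR, NRRL3_08430, NRRL3_08794 and NRRL3_09667 among them: with the filter applied to the 8 reference libraries alone, an alternative chosen after seeing the data, 42 members and 9499 genes were left. Counts over the 55 in the reference strain therefore include genes with few reads there, and the counts over the 42 are given beside them. The counts in ΔgaaR, the medians and the counts by highest level are over all 55 and were not recomputed over the 42. They include the 13 that passed only where the rule made them high, so the shares beside them over the 10003 genes serve as a description. Comparisons next to each other share libraries, so their values are given side by side. Standard errors (SE) stand after the log2 fold changes, and levels are mean FPKM ± SD with n = 2 in each group. Since the members were chosen through a condition-wise excess in ΔgaaR, a change within either strain and the size of R are not separate facts. Apart from the added 1 FPKM and the scaling, the change in ΔgaaR less that in the reference is the step in R between the conditions. A contrast of the strains therefore restates values that the choice used.

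Between the carbon sources at 2 h, more members of ΔgaaR fell than rose on SBP relative to GA. Of 55, 22 (40.0%) were called, against 31.0% of all genes tested. The 19 that fell and 3 that rose are 34.5% and 5.45%, against 14.9% and 16.1% of all genes, and the median log2 fold change was -0.48 against 0.03. The largest falls were those of NRRL3_03709, NRRL3_04276 and NRRL3_08844. NRRL3_04276 had 18.9 ± 7.13 FPKM on SBP and 97.9 ± 13.7 on GA (log2 fold change -2.28, SE 0.27, edgeR adjusted p = 1.7e-05). NRRL3_03709, with 8 reads in all on SBP and 52 on GA, changed by -2.71 (SE 0.60, adjusted p = 0.0027). NRRL3_08844 changed by -2.27 (SE 0.59, adjusted p = 0.009). The 3 that rose were NRRL3_01740 (3.42, SE 0.30, adjusted p = 9.1e-07), NRRL3_06186 (2.03, SE 0.27, adjusted p = 4.8e-05) and NRRL3_02751 (1.27, SE 0.39, adjusted p = 0.02). The call of NRRL3_02751 was lost without ΔgaaR GA replicate 2 (1.07, adjusted p = 0.12) or SBP replicate 1 (0.62, 0.28), in limma on log2 FPKM with a pseudocount of 1 (0.054) or 0.1 (0.087) and when the 4 libraries compared were fitted alone (0.098). The SE above share a spread with all 16 libraries, while replicates of both groups compared here were far apart. Fitted alone, the 4 libraries gave 16 calls, 2 higher and 14 lower. The edgeR adjusted p was then 0.011 for NRRL3_04276, 0.041 for NRRL3_03709 and 0.038 for NRRL3_08844. For NRRL3_01740 it was 0.0019 and for NRRL3_06186 0.0085.

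In the reference strain the same comparison leaned the other way. There 24 members (43.6%) were called, against 52.6% of all genes tested. The 19 that rose on SBP and 5 that fell are 34.5% and 9.09%, against 27.3% and 25.3% of all genes. Of the 42, 21 (50.0%) were called, 17 higher and 4 lower, against 55.3% of the 9499 genes. The 55 had a median of 0.74 (0.35 with genes at 0 reads in a group set to their bound) against 0.06. Reads were few: 11 of the 55 had at most 3 reads in each of the 4 libraries, and 2 of these were among the called, so no fold is given for them. NRRL3_03272 had 35.7 ± 6.92 FPKM on SBP and 0.915 ± 0.841 on GA (5.27, SE 0.61, adjusted p = 3.3e-06). NRRL3_01740 had 114 reads on SBP and 1 on GA, a ratio of 102 (95% exact interval 17.9 to 4051, counting error only). Of those that fell, NRRL3_11091 changed by -1.59 (SE 0.43, adjusted p = 0.0056) and NRRL3_06658 by -1.10 (SE 0.27, adjusted p = 0.003). NRRL3_09667, with 2 reads on SBP and 20 on GA, a ratio of 11.2 (95% exact interval 2.72 to 98.9), lost its call without GA replicate 2 (adjusted p = 0.15) or SBP replicate 2 (0.11). NRRL3_08430 rests on 5 reads against 0, so no fold is given, and lost its call in 10 of the alternatives tried (adjusted p from 0.05 to 0.15).

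From 2 to 8 h on SBP most called members of ΔgaaR rose. At 8 h against 2 h 35 (63.6%) were called, against 30.3% of all genes tested. The 28 that rose and 7 that fell are 50.9% and 12.7%, against 15% and 15.3% of all genes, and the median log2 fold change was 1.13 against -0.00. NRRL3_03968 had 184 ± 17.4 FPKM at 8 h and 6.91 ± 1.13 at 2 h (4.58, SE 0.40, adjusted p = 8.3e-07). NRRL3_11452 had 450 ± 8.48 and 19.2 ± 1.94 FPKM (4.41, SE 0.36, adjusted p = 2.4e-07), and NRRL3_03902 80.5 ± 9.4 and 3.92 ± 0.481 FPKM (4.24, SE 0.38, adjusted p = 5.3e-07), at 8 h and at 2 h in that order. Among those that fell, NRRL3_03146 changed by -2.45 (SE 0.29, adjusted p = 1.3e-05), NRRL3_00817 by -2.17 (SE 0.28, adjusted p = 2.3e-05) and NRRL3_03272 by -1.62 (SE 0.41, adjusted p = 0.0066). The last call was lost without replicate 1 at 2 h (-1.05, adjusted p = 0.098), without replicate 2 at 8 h (-1.52, 0.063) and in limma with a pseudocount of 0.1 (0.06). The 7 falls became 4 without replicate 1 at 2 h or replicate 2 at 8 h.

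In the reference strain more of the called members fell than rose over the same interval, while log2 fold changes of all 55 were positive for 28 and negative for 27. Here 24 (43.6%) were called, against 40.5% of all genes tested. These 24 calls became 14 without replicate 1 at 2 h, 15 without replicate 2 at 8 h and 17 without either of the other libraries. The 9 that rose and 15 that fell are 16.4% and 27.3%, against 21.0% and 19.5% of all genes. Of the 42, 22 (52.4%) were called, 9 higher and 13 lower, against 42.5% of the 9499 genes. The 55 had a median of 0.04 (0.00 with bounds) against -0.02. NRRL3_07411 had 115 reads at 8 h and 7 at 2 h (3.95, SE 0.45, adjusted p = 5.8e-06). NRRL3_11091 changed by 2.71 (SE 0.44, adjusted p = 0.00017) and NRRL3_02751 by 2.66 (SE 0.43, adjusted p = 0.00016). NRRL3_03272 had 1.65 ± 0.283 FPKM at 8 h and 35.7 ± 6.92 at 2 h (-4.55, SE 0.55, adjusted p = 9.2e-06). NRRL3_01387, with 3 reads at 8 h and 23 at 2 h, a ratio of 7.26 (95% exact interval 2.19 to 37.7), lost its call without any of 3 of the 4 libraries (adjusted p from 0.063 to 0.091). NRRL3_08430 was called lower from 0 reads against 5, with no fold given, and the call was lost in 9 alternatives (adjusted p from 0.057 to 0.15). The 9 rises became 4 without replicate 1 at 2 h, and 5 without replicate 2 at 2 h or at 8 h.

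From 8 to 24 h on SBP the members of ΔgaaR split. At 24 h against 8 h 27 (49.1%) were called, against 29.0% of all genes tested. The 13 that rose and 14 that fell are 23.6% and 25.5%, against 14.0% and 15% of all genes, with a median of 0.11 against 0.01. NRRL3_11516 had 8256 ± 1957 FPKM at 24 h and 124 ± 31.9 at 8 h (5.80, SE 0.71, adjusted p = 1.6e-05). NRRL3_07672 changed by 3.10 (SE 0.32, adjusted p = 2.6e-06) and NRRL3_04490 by 2.91 (SE 0.47, adjusted p = 0.0002). NRRL3_02416 had 10.3 ± 2.06 FPKM at 24 h and 158 ± 9.14 at 8 h (-4.21, SE 0.26, adjusted p = 2e-08). NRRL3_03467 changed by -2.82 (SE 0.19, adjusted p = 3.9e-08) and NRRL3_00800 by -2.49 (SE 0.38, adjusted p = 0.00012). Of the counts, the 13 rises were 8 without ΔgaaR replicate 2 at 24 h and 18 with total count scaling, and the 14 falls were 7 in limma with a pseudocount of 0.1. Total count scaling moved the median of all genes by 0.28 here, and the share of all calls that were higher to 69.9%, against 48.2% with the TMM scaling used.

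In the reference strain most called members rose over this interval. Here 35 (63.6%) were called, against 44.9% of all genes tested. The 26 that rose and 9 that fell are 47.3% and 16.4%, against 23.5% and 21.4% of all genes. Of the 42, 33 (78.6%) were called, 25 higher and 8 lower, against 47.0% of the 9499 genes. The median of the 55 was 1.27 (0.93 with bounds) against 0.05. NRRL3_10147 had 410 ± 89.3 FPKM at 24 h and 22.3 ± 3.75 at 8 h (4.12, SE 0.24, adjusted p = 4.1e-09). NRRL3_04276 changed by 3.87 (SE 0.34, adjusted p = 2.1e-07) and NRRL3_03272 by 3.75 (SE 0.55, adjusted p = 4.3e-05). NRRL3_00800 had 25.9 ± 14 FPKM at 24 h and 307 ± 17.1 at 8 h (-3.64, SE 0.40, adjusted p = 2.5e-06), and NRRL3_06783 changed by -3.59 (SE 0.34, adjusted p = 4.5e-07). NRRL3_08794 was called lower from 0 reads at 24 h against 5 at 8 h. Its call was lost in 5 of the alternatives tried (adjusted p from 0.056 to 0.27). Rises thus outnumbered falls at 8 h against 2 h in ΔgaaR and at 24 h against 8 h in the reference. Whether the strains differed in this was not tested, and such a difference is not separate from the R values that the choice used.

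**Figure D5:**
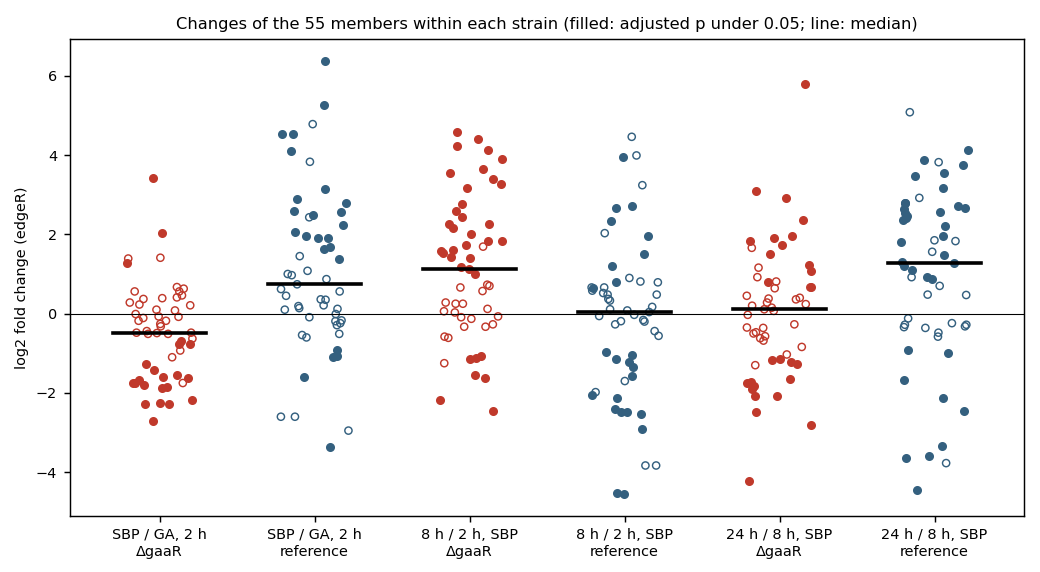
Log2 fold changes (edgeR) of the 55 members in the 6 within-strain comparisons, each point a gene, filled where the adjusted p was under 0.05, with the median as a line. For each comparison ΔgaaR stands left of the reference strain, and the medians are -0.48 and 0.74 for SBP against GA, 1.13 and 0.04 for 8 h against 2 h, and 0.11 and 1.27 for 24 h against 8 h.

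The condition with the highest mean level was counted for each gene. In ΔgaaR it was GA for 11 members (20.0%, against 23.5% of all genes tested), SBP at 2 h for 3 (5.45% against 17.1%), SBP at 8 h for 16 (29.1% against 18.1%) and SBP at 24 h for 25 (45.5% against 41.3%). In the reference it was GA for 4 (7.27% against 20.4%), SBP at 2 h for 12 (21.8% against 23.8%), SBP at 8 h for 12 (21.8% against 19.4%) and SBP at 24 h for 27 (49.1% against 36.4%). The most frequent condition, SBP at 24 h, was thus near the share of all genes in ΔgaaR. The median level of the members in ΔgaaR was 25 FPKM on GA, 18.9 on SBP at 2 h, 47.5 at 8 h and 50.7 at 24 h. In the reference it was 2.73, 4.45, 6.27 and 11.2 FPKM in the same order.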

How the data were processed

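Libraries of total RNA from 16 mycelium samples were made with standard Illumina protocols, per the labels' protocols. Per the file headers, every deposited file holds, for each gene, an expected count, an FPKM value and a length. BWA, Bowtie2 and RSEM are named in the submitters' processing notes, and their roles and versions are not given in the sources used here, nor is the build. Of 168277 expected counts deposited by the authors, 0.326% were not whole (2 members had such values). FPKM values were deposited by the authors already scaled. Each length is a multiple of 3 and was read as a coding length.

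R was computed from FPKM as described. The members and lists were chosen with earlier results of these data known. Expected counts were rounded, filtered (filterByExpr) and scaled by TMM. They were fitted together for all 16 libraries in edgeR 4.0.16 (under R 4.3.3, with two-sided quasi-likelihood F tests and 8 residual degrees of freedom). The fit was checked on simulated data, in which far fewer genes were changed than were called here. That check therefore does not cover the choice of scaling. limma 3.58.1, DESeq2 1.42.0 and other scalings, filters, pseudocounts and omissions of 1 library served as alternatives. Named genes are the 8 most abundant members, the 3 with the largest smallest R, those nearest the threshold, those with consecutive tags, and up to 3 called members per direction with the largest log2 fold change in each comparison. Lists by gene symbol, spore markers included, were not used, since no table pairs these tags with symbols. Intervals and floors cover counting error only.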

Additional observations from a re-analysis of the deposited data

Results flagged for a closer look

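For some members every library of ΔgaaR moved one way between 2 conditions and every library of the reference the opposite way. Members with at most 3 reads in all libraries of a strain were not considered. The difference between the strains was not tested, and it is not separate from the R values that the choice used. Such opposite movement was found for 10 members for SBP against GA at 2 h, 5 for 8 h against 2 h and 9 for 24 h against 8 h. Over all genes tested it was found for 18.2%, 15.6% and 21.6%, so the members' counts of it lie at or below the background. Both changes were called in 6, 3 and 5 of these members. The share of all genes with both called was not computed, so nothing is read from these counts.

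For SBP against GA at 2 h the log2 fold change was -2.26 in ΔgaaR and 0.45 in the reference for NRRL3_00800, -0.76 and 1.38 for NRRL3_00817, -1.61 and 1.67 for NRRL3_02416, and -1.28 and 2.80 for NRRL3_03467. It was -2.28 in ΔgaaR and 0.87 in the reference for NRRL3_04276, -0.48 and 2.56 for NRRL3_05085, and -0.51 and 0.97 for NRRL3_07411. It was -1.63 in ΔgaaR and 1.92 in the reference for NRRL3_08289, -0.77 and 1.90 for NRRL3_11389, and -1.68 and 2.60 for NRRL3_11452. Both changes were called for NRRL3_00817, NRRL3_02416, NRRL3_03467, NRRL3_08289, NRRL3_11389 and NRRL3_11452, and neither was for NRRL3_07411.

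For 8 h against 2 h on SBP the log2 fold change was 1.18 in ΔgaaR and -2.53 in the reference for NRRL3_03470, and 1.54 and -2.48 for its neighbour NRRL3_03471. The values were 1.01 in ΔgaaR and -0.56 in the reference for NRRL3_04276, 0.70 and -1.04 for NRRL3_05085, and 2.25 and -1.22 for NRRL3_08289. Both changes were called for NRRL3_03470, NRRL3_03471 and NRRL3_08289.

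For 24 h against 8 h on SBP the log2 fold change was 0.66 in ΔgaaR and -2.45 in the reference for NRRL3_00817, -0.47 and 1.97 for NRRL3_00873, -1.23 and 1.30 for NRRL3_03471, and -1.76 and 3.55 for NRRL3_03902. The values were 2.91 in ΔgaaR and -0.28 in the reference for NRRL3_04490, 0.20 and -0.48 for NRRL3_06658, and -1.73 and 3.16 for NRRL3_08676. They were -1.28 in ΔgaaR and 1.80 in the reference for NRRL3_10612, and -1.17 and 1.49 for NRRL3_11389. Both changes were called for NRRL3_03471, NRRL3_03902, NRRL3_08676, NRRL3_10612 and NRRL3_11389, and neither was for NRRL3_06658.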

How the results depend on the processing

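The number of members depended on the rule's settings. It was 122 with a pseudocount of 0.1 and 82 with a pseudocount of 0.5, all 55 among them in either case. It was 265 with R of at least 0.5 and 17 with R of at least 1.5. It was 23 when the lower ΔgaaR library was set over the higher reference library, 51 with TMM library sizes (47 of the 55 among them), and 50 to 63 with 1 library left out. In the within-strain comparisons no named gene reversed its direction. The balance of the calls did for 24 h against 8 h in ΔgaaR, where 13 rises and 14 falls became 18 and 14 with total count scaling. For 24 h against 8 h in ΔgaaR, the 14 falls were 7 in limma on log2(FPKM + 0.1), and the 13 rises were 8 to 9 with 1 library left out. For 8 h against 2 h, the 7 falls in ΔgaaR were 4 to 7 with 1 library left out. For the same times in the reference, the 24 calls were then 14 to 17 and the 9 rises 4 to 7. The cause was not tested beyond the smaller number of libraries. Of the recomputed counts, 234 were within 1.5 times their value, the 82 members with a pseudocount of 0.5 included, and 13 were not. Single named genes kept their call in 409 recomputed cases and lost it in 37. Total count scaling moved the median of all genes by 0.11 and 0.28 in ΔgaaR (8 h against 2 h, 24 h against 8 h) and by 0.13 in the reference (8 h against 2 h).

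The labels do not say whether a replicate number marks a shared culture or day. Over 28 pairs of groups the correlation of replicate differences ran from -0.39 to 0.30 and exceeded 0.1 in 4. The lowest, -0.39 and -0.28, paired ΔgaaR on SBP at 2 h with ΔgaaR on GA and on SBP at 24 h. With a replicate block, calls in ΔgaaR were 21, 33 and 27 and in the reference 23, 25 and 36 (SBP against GA, 8 h against 2 h, 24 h against 8 h), against 22, 35 and 27 and 24, 24 and 35 without it. Low reads in the reference (0 to 5 per library for several members) limit the within-strain results there.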
